A study of Homo sapiens with 6 samples.

Results

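The genes described here encode the caveolins and the proteins that coat or shape caveolae: CAV1, CAV2, CAVIN1 (older name PTRF), CAVIN2 (SDPR), CAVIN3 (PRKCDBP), EHD2 and PACSIN2. They were taken as a fixed list of 7 genes, of 19775 genes with a probe set naming only that gene. Every probe set whose platform annotation named a member was used. That gave 17 probe sets of 54613, none of which named a further gene. Expression was measured on 6 Affymetrix arrays of MDA-MB-436, an established triple-negative human breast tumour line with mesenchymal features. On 3 arrays the RNA came from cells labelled as NF1-C2S transfected, which the series record describes as stably transfected with an NF1-C2 expression plasmid. The plasmid's protein belongs to the nuclear factor I family of transcription factors, as a variant of its C member. The other 3 arrays are labelled wild type. No group with an empty plasmid is named. The sources used here do not say whether the transfected cells were a clone or a pool, or which promoter drives the plasmid. They also do not call the replicates separate cultures, so the p-values rest on a spread that may be technical only.

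Caveolae are small flask-shaped pits of the plasma membrane that buffer membrane tension, take up cargo and hold signalling proteins. Caveolins are inserted into the membrane as oligomers and need CAV1 to form the pit in cells other than muscle, while the cytosolic cavins assemble over them as a coat. EHD2 sits at the neck of the pit and PACSIN2 bends the membrane. CAV1 is a usual marker of basal-like and mesenchymal-like breast tumour cells.

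CAV1, CAV2 and CAVIN3 were lower in the transfected cells, and the other 4 genes gave no call on any probe set. CAV2 was 4.22-fold lower and CAV1 3.31-fold lower on their brightest probe sets, and CAVIN3 was 1.82-fold lower. CAVIN1, the cavin without which caveolae do not form, changed by 0.14 or less on the log2 scale on each of its 3 probe sets. Of the 17 probe sets, 5 fell past an adjusted p of 0.05, 0 rose and 12 did not pass, and 5 had an unadjusted p under 0.05 (limma). Over all 54613 probe sets, 11.4% fell and 10.8% rose, so the share of 29.4% among these probe sets stands on a broad background of change. Of the 13 members' probe sets at or above the median level of the array, 4.83 on the log2 scale, 5 fell, against 19.7% of all probe sets at or above it. Counted by gene, 3 of 7 passed on their brightest probe set, all by falling. Of all genes, 31.9% passed in either direction and 16.9% fell. The 5 probe sets that fell were 2 of CAV1, 2 of CAV2 and 1 of CAVIN3, and probe sets of 1 gene are not independent. The difference between these shares was not tested. The median log2 change over the 17 probe sets was -0.06, and over all probe sets it was 0.007.

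**Figure D1:**
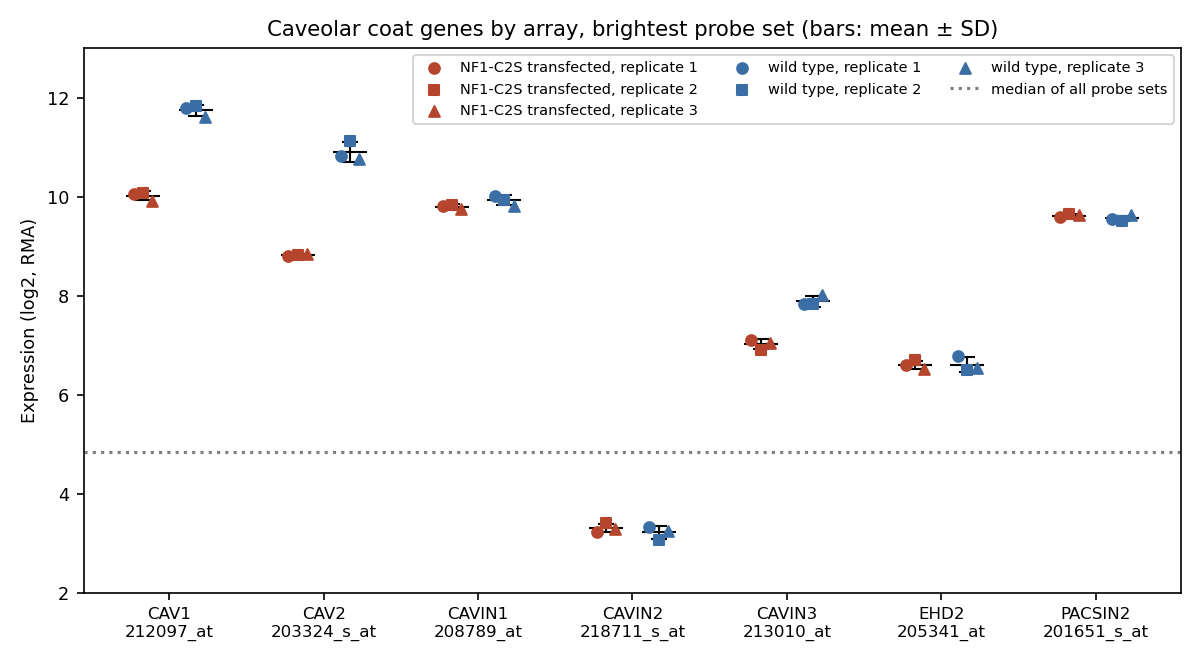
Expression of the 7 genes on each array, in log2 RMA units on the y axis, for the brightest probe set of each gene on the x axis. Red points are NF1-C2S transfected arrays, blue points are wild type arrays, shapes mark the replicate number, black bars give mean ± SD of 3 arrays, and the dotted line is the median of all probe sets, 4.83. The groups are apart for CAV1, CAV2 and CAVIN3 and overlap for CAVIN1, CAVIN2, EHD2 and PACSIN2.

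CAV1 and CAV2 lie next to each other on chromosome 7, are read from the same strand, and fell together. The stretches of 250 bases before their starts are shown because the plasmid encodes a nuclear factor I protein, whose known binding sequence has the core TTGGC. Capitals mark each TTGGC, or GCCAA on the other strand. Both stretches are from RefSeq, assembly GRCh38.p14, on the plus strand, and each ends just before the gene's first listed start.
CAV1, chr7:116524759-116525008: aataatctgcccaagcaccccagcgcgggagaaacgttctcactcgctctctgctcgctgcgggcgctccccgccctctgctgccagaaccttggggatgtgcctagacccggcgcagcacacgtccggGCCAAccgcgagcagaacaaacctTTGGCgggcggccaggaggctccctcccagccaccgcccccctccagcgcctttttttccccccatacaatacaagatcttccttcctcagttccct
CAV2, chr7:116499488-116499737: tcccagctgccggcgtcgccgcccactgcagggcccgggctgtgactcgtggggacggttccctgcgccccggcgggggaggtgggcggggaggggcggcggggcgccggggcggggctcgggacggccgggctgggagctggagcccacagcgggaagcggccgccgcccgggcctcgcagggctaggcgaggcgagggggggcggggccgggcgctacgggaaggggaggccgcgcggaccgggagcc

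The CAV1 stretch held 2 cores, which began 121 and 97 bases before the start, and the CAV2 stretch held 0. The count depends on the start: of the 3 starts listed for CAV1, the second overlaps the first and has the same 2 cores, and the third has 0, as do both starts listed for CAV2. The core is common, and 40.8% of 35116 such stretches over all genes held it on either strand. The palindrome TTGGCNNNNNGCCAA was in neither, and was in 0.0285% of all. The GC box GGGCGG, searched on both strands, was matched 3 times before CAV1 and 6 times before CAV2, and 42.6% of all stretches held at least 1. How many stretches held as many cores or GC boxes as these was not counted. The CAV1 stretch was 63.6% G or C and the CAV2 stretch 83.2%. No core overlapped a GC box in either stretch, though the core 97 bases before the CAV1 start directly adjoins a GC box. The forkhead core GTAAACA, also searched on both strands, was in neither of these stretches and was in 2.98% of all. Such matches describe the letters and show no binding. CAVIN2, EHD2 and PACSIN2 also had promoter entries, with 1, 0 and 1 nuclear factor I cores before the first listed start. The table used here has no entry for CAVIN1 or CAVIN3.

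CAV1 encodes the main structural protein of caveolae. On its brightest probe set, 212097_at, the transfected arrays read 10.06, 10.08 and 9.91 and the wild type arrays 11.79, 11.83 and 11.61 on the log2 scale. Every transfected array lay at least 1.53 below every wild type array, and replicate 3 was the lowest in both groups. The means were 10.02 ± 0.09 in transfected cells and 11.74 ± 0.12 in wild type cells (SD, n = 3 each), which is -1.73 as a log2 change (SE 0.09, 95% interval -1.94 to -1.51, limma adjusted p = 1.78e-05). The other CAV1 probe set, 203065_s_at, read 9.20, 9.20 and 9.12 on the transfected arrays and 10.86, 10.89 and 10.64 on the wild type arrays. Its groups were as clearly apart, with a log2 change of -1.62 (limma adjusted p = 2.13e-05). Among all probe sets these falls had ranks 442 and 500.

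CAV2 encodes a caveolin that assembles with CAV1 into mixed oligomers and depends on it to reach the cell surface. Its brightest probe set, 203324_s_at, read 8.80, 8.83 and 8.84 on the transfected arrays and 10.83, 11.12 and 10.75 on the wild type arrays. The transfected arrays were nearly equal, the wild type arrays spread more, and a gap of 1.91 lay between the groups. The log2 change was -2.08 (SE 0.11, 95% interval -2.32 to -1.83, limma adjusted p = 1.48e-05), the fall of rank 279 among all probe sets. The probe set 203323_at read 6.21, 6.68 and 6.50 on the transfected arrays and 8.11, 8.34 and 7.96 on the wild type arrays. It also fell by 1.67 on the log2 scale (SE 0.14, limma adjusted p = 0.000135), with transfected replicate 1 the lowest of all arrays. The third, 213426_s_at, lay below the array's median level in both groups, at 4.62, 4.41 and 4.31 on transfected arrays and 4.74, 4.75 and 4.53 on wild type arrays. Those groups overlapped, and the log2 change of -0.23 did not pass (95% interval -0.48 to 0.03, limma adjusted p = 0.21). The mean over the 3 CAV2 probe sets changed by -1.33 (limma adjusted p over genes 2.71e-05). In bulk RNA, a change in every cell and a change in the share of cells that express a gene cannot be told apart, for these genes and those that follow.

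The changes of the coat genes were also set against that of CAV1 within arrays, on the brightest probe sets. Within each array, the log2 difference of CAV2 minus CAV1 was lower by 0.35 in transfected than in wild type cells, and the groups did not overlap (change -0.35, exact permutation test, two-sided, p = 0.1, the smallest p that 3 against 3 arrays allow). The CAV2 probe set 203323_at, with a change of -1.67, read about what the CAV1 probe sets did. CAVIN3 minus CAV1 was higher by 0.86 in transfected than in wild type cells. Such differences were computed for the 6 other members, with an adjusted exact p of 0.1 for each, so the test cannot pass a threshold of 0.05 here. For members that gave no call they restate the fall of CAV1 and are not listed.

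**Figure D2:**
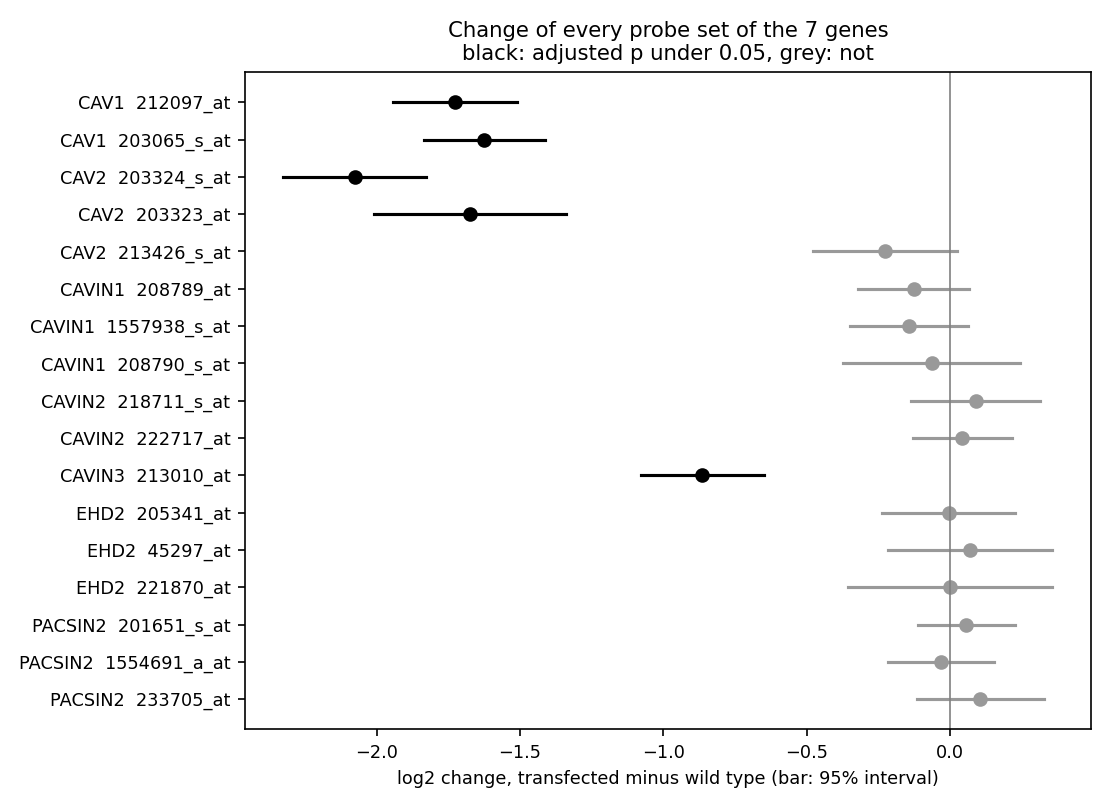
The log2 change, transfected minus wild type, of each of the 17 probe sets on the x axis, with its 95% interval from limma as a bar and one line per probe set, grouped by gene on the y axis. Both CAV1 probe sets, the CAV2 probe sets other than the dim 213426_s_at and the CAVIN3 probe set lie left of 0 and passed, and the intervals of the remaining 12 include 0.

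Among the cavins, CAVIN3, which binds CAV1 and was first named for its binding to protein kinase C delta, was the member that fell. Its only probe set, 213010_at, read 7.10, 6.91 and 7.05 on the transfected arrays and 7.82, 7.82 and 8.01 on the wild type arrays. The groups were apart by 0.72, with wild type replicate 3 the highest array. The log2 change was -0.86 (SE 0.09, 95% interval -1.08 to -0.65, limma adjusted p = 0.000385), a fall of rank 1920 among all probe sets. No second probe set was there to compare it with.

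CAVIN1 was read by 3 probe sets, all above the median level, and none passed. The brightest, 208789_at, read 9.81, 9.84 and 9.74 on the transfected arrays and 10.02, 9.93 and 9.82 on the wild type arrays. The ranges overlapped narrowly, with wild type replicate 3 inside the transfected range. The log2 change was -0.13 (95% interval -0.32 to 0.07, limma adjusted p = 0.385). The probe sets 1557938_s_at and 208790_s_at changed by -0.14 (95% interval -0.35 to 0.06) and -0.06 (95% interval -0.37 to 0.25). The widest of these intervals ends at -0.37, which is smaller in size than the smallest change in the interval of CAV1, -1.41, or of CAVIN3, -0.65.

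CAVIN2, a cavin that curves membrane, was dim in both groups. Its probe set 218711_s_at read 3.23, 3.40 and 3.28 on the transfected arrays and 3.33, 3.06 and 3.25 on the wild type arrays. The probe set 222717_at read 2.71, 2.80 and 2.69 on the transfected arrays and 2.68, 2.67 and 2.72 on the wild type arrays. Both pairs of groups overlapped, and changes of 0.09 and 0.04 did not pass (limma adjusted p = 0.633 and 0.784). RMA compresses differences at such levels, so these values bound little about CAVIN2.

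EHD2, the ATPase that holds caveolae at the cell surface, was measured at a middle level and gave no call. The probe set 205341_at read 6.59, 6.69 and 6.52 on the transfected arrays and 6.78, 6.50 and 6.53 on the wild type arrays. The groups overlapped, with a log2 change of -0.0048 (95% interval -0.24 to 0.23, limma adjusted p = 0.987). The probe sets 45297_at and 221870_at changed by 0.07 and 0.00 (95% intervals -0.22 to 0.36 and -0.35 to 0.35).

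PACSIN2, a membrane-bending F-BAR protein also known as syndapin 2, was bright and varied little. The probe set 201651_s_at read 9.59, 9.64 and 9.62 on the transfected arrays and 9.55, 9.51 and 9.62 on the wild type arrays. The groups overlapped, and the change of 0.06 did not pass (95% interval -0.11 to 0.23, limma adjusted p = 0.696). The probe set 1554691_a_at changed by -0.03 and the dim 233705_at by 0.11, with adjusted p-values of 0.869 and 0.546 (limma).

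The groups of the 12 probe sets without a call all overlapped, and the groups of the 5 with a call did not. Over all probe sets, groups did not overlap in 34.9%. In the plot of level against change, the probe sets of CAV1, CAV2 and CAVIN3 that fell lie above the median level. Of the 27314 probe sets at or above that level, 5383 fell past the threshold, and the share near their own levels was not counted.

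**Figure D3:**
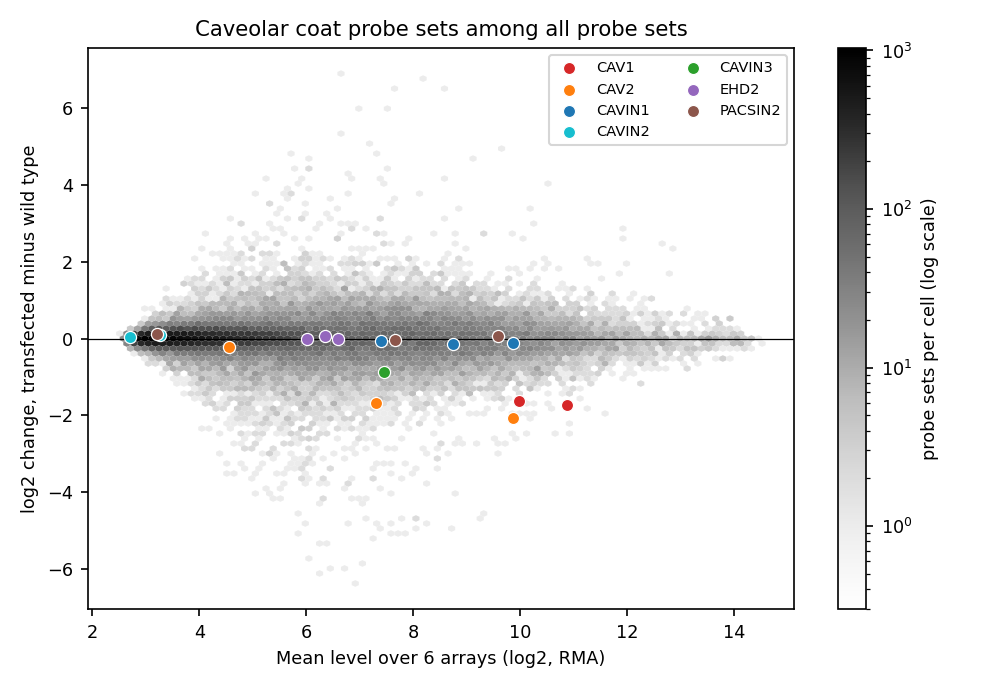
All 54613 probe sets by mean level over the 6 arrays (x axis, log2 RMA) and log2 change, transfected minus wild type (y axis), as grey cells shaded by how many probe sets they hold on a log scale, with the 17 probe sets of the caveolar coat genes in colour. CAV1, at mean levels of 10.88 and 9.99, and the brighter CAV2 probe sets lie in the lower part of the cloud, and the remaining members except CAVIN3 lie near 0.

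Because CAV1 and CAV2 are neighbours, a short list of genes on either side of them was read as well. In the order of the RefSeq table of assembly GRCh38.p14 they run TFEC, TES, CAV2, CAV1, MET, CAPZA2 and WNT2, with other annotated genes between some of them. None of the 5 measured genes outside the caveolins passed on its brightest probe set, where 31.9% of all genes did. TES, an adhesion protein gene, read 8.55, 8.66 and 8.82 on the transfected arrays and 8.82, 9.01 and 8.92 on the wild type arrays. Its log2 change of -0.24 did not pass (limma adjusted p over genes 0.0957), although it did without transfected replicate 3 (-0.31, adjusted p = 0.0495). MET, the hepatocyte growth factor receptor gene, changed by 0.19 (limma adjusted p over genes 0.0685), with groups that did not overlap.

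CAPZA2, which encodes an actin capping subunit, changed by 0.12 on its brightest probe set (limma adjusted p over genes 0.217). Its probe set 201237_at rose by 0.69 (adjusted p over probe sets 0.000483), and the mean of its probe sets rose by 0.31 (adjusted p over genes 0.00876). TFEC and WNT2 lay at the dim end of the scale and changed by -0.0066 and -0.0014. ST7 was not analysed here. The median change over these 5 genes was -0.0014, beside -2.08 and -1.73 for CAV2 and CAV1 between them.

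**Figure D4:**
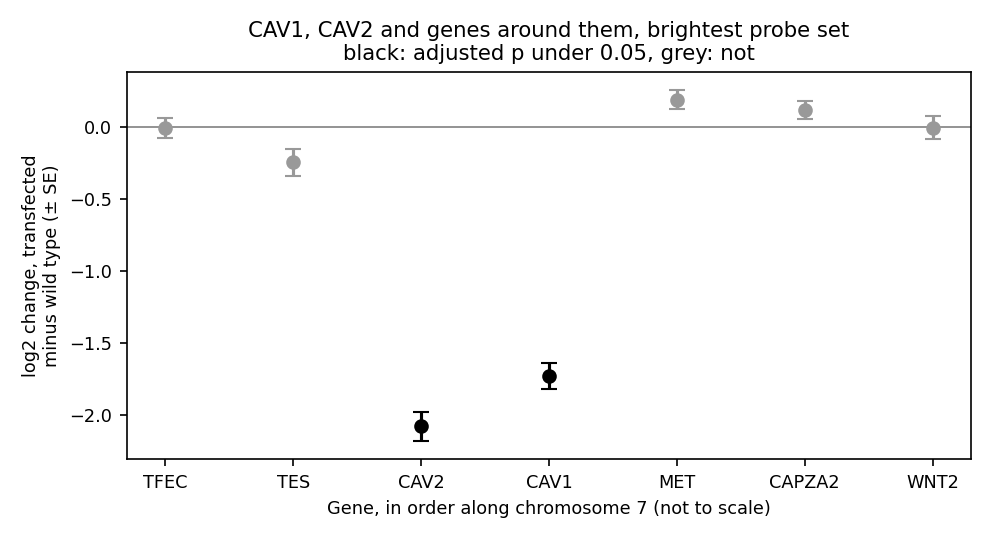
The log2 change, transfected minus wild type, with its SE (y axis) of CAV2, CAV1 and the genes measured around them, in their order along chromosome 7 but not to scale (x axis), each on its brightest probe set. CAV2 and CAV1 lie at -2.08 and -1.73, and the genes on both sides lie between -0.24 and 0.19.

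Further caveola and endocytosis genes were read on their brightest probe sets, and of 41 genes in 5 lists, the chromosome neighbours included, 8 rose and 5 fell. That is 31.7% called, against 31.9% of all genes, so the lists as a whole did not stand apart from the background. Of 7 relatives of the coat genes, 1 rose, 0 fell and 6 did not pass, with a median of 0.06. EHD4, a paralog of EHD2 in endosomes, read 9.48, 9.43 and 9.44 on the transfected arrays and 9.07, 9.21 and 8.93 on the wild type arrays. It rose by 0.38 (limma adjusted p over genes 0.0121), and 4 further EHD4 probe sets rose past the threshold over probe sets, by 0.42 to 0.62. EHD1, another paralog of EHD2 in endosomal recycling and named after its values were seen, went the other way. Its brightest probe set read -0.25 and did not pass (limma adjusted p over genes 0.0794), while its other 4 probe sets fell past the threshold over probe sets, with log2 changes from -0.66 to -0.31. The muscle caveolin CAV3, named after its value was seen, read -0.19 (adjusted p = 0.257).

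Of 10 measured caveola partners and regulators, 3 rose, 2 fell and 5 did not pass (median 0.09). ROR1, a receptor-like protein reported to scaffold CAV1 and CAVIN1 at the membrane, read 5.98, 4.92 and 5.20 on the transfected arrays and 7.10, 6.79 and 6.69 on the wild type arrays. The groups were apart, and ROR1 fell by 1.49 on the log2 scale (SE 0.26; adjusted p over genes 0.00342, limma), and all 3 ROR1 probe sets fell past the threshold. The size depends on the probe set: 232060_at read -2.74, a larger fall than that of CAV2, and 211057_at read -1.04 (adjusted p over probe sets 0.000185 and 0.000113). PRKCA, a protein kinase C found in caveolae, fell by 0.75 (adjusted p = 0.00216), with larger falls on 215195_at and 206923_at (log2 changes -1.44 and -1.09) and values of -0.01 and -0.04 on 1560074_at and 215194_at. SRC, the kinase that phosphorylates CAV1, rose by 1.10 on 213324_at (adjusted p = 0.000551), but the other 6 SRC probe sets did not pass and the mean over all 7 read 0.17 (adjusted p = 0.272). FLNA was not analysed here.

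Of 7 flotillin and raft protein genes, 3 rose, 1 fell and 3 did not pass (median 0.03). CD59, named after its values were seen, read 0.03 on its brightest probe set and did not pass. Its probe sets 212463_at and 228748_at rose by 0.45 and 0.80 (limma adjusted p over probe sets 0.00598 and 0.00897). Those at 0.21 and 0.15, 200985_s_at and 200984_s_at, did not pass. PLAUR, the lipid-anchored urokinase receptor, read 9.96, 9.95 and 9.96 on the transfected arrays and 8.98, 8.90 and 9.00 on the wild type arrays. It rose by 1.00 (limma adjusted p over genes 3.76e-05), and all 3 of its probe sets rose. STOM, the raft protein stomatin, fell by 0.97 (adjusted p = 0.00297), beside a dim probe set, 201062_at, at -0.10 (adjusted p over probe sets 0.495). CD55, a lipid-anchored complement regulator, rose by 0.37 (adjusted p = 0.0163), but its call was lost without wild type replicate 1 or 3 (adjusted p = 0.0559 and 0.057). Its other probe sets read 0.01 and 0.08, and the mean of its probe sets read 0.15 and did not pass (limma adjusted p over genes 0.212).

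Of 12 genes of the clathrin coat and its adaptors, a separate route of uptake, 1 rose, 2 fell and 9 did not pass (median -0.07). Among those 9, EPS15, PICALM and CLTA, named after their values were seen, each rose on another probe set. EPS15 217886_at rose by 0.57, PICALM 212511_at by 0.46 and the dim CLTA 1560434_x_at by 0.61 (limma adjusted p over probe sets 0.00133, 0.0206 and 0.0048). No probe set of those 9 genes fell past the threshold. CLTB, a clathrin light chain, fell by 0.39 (limma adjusted p over genes 0.0064), and its 3 bright probe sets fell by 0.38 to 0.43. AP2B1, a subunit of the plasma membrane adaptor, fell by 0.46 (adjusted p = 0.00316), while its other probe set read 0.04. The mean of the AP2B1 probe sets read -0.21 and did not pass (limma adjusted p over genes 0.0811). AP2S1, a smaller subunit of that adaptor, rose by 0.24 (adjusted p = 0.0249). Its call was lost when transfected replicate 1 or 2 or any wild type array was left out (adjusted p between 0.0538 and 0.0808). The AP2S1 probe sets 208074_s_at and 202120_x_at read 0.18 each and did not pass (limma adjusted p over probe sets 0.16 and 0.164). The mean of its probe sets read 0.20 and did not pass either (limma adjusted p over genes 0.0512). The changes of the clathrin genes that passed were smaller than those of CAV1, CAV2 and CAVIN3, though the difference between the lists was not tested.

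**Figure D5:**
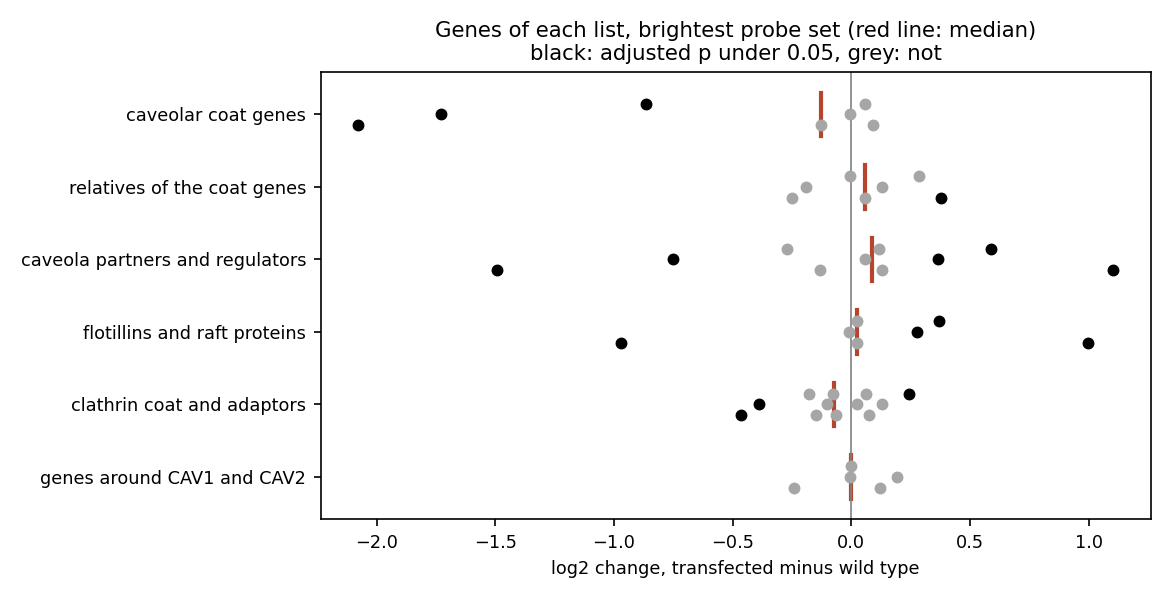
The log2 change, transfected minus wild type (x axis), of each measured gene of the caveolar coat and of the 5 related lists (y axis), on the brightest probe set, black where the adjusted p was under 0.05 and grey where it was not, with a red line at the median of each list. CAV2 and CAV1 are the 2 leftmost points of all, and the points of each list lie on both sides of 0.

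By the root mean square difference between mean-centred values over the 6 arrays, the genes most like CAV1 were SPDL1, DUSP4 and SLC7A5, at 0.035, 0.058 and 0.063. SPDL1, a mitotic spindle gene, read 8.97, 8.95 and 8.72 on the transfected arrays and 10.64, 10.64 and 10.45 on the wild type arrays, with replicate 3 lowest in both groups as for CAV1. The genes most like CAV2 were CA8, GPM6B and CXCL14, at 0.082, 0.099 and 0.106. Their log2 changes were -2.03, -2.10 and -1.96, with transfected means of 4.66, 4.16 and 4.78, below the median level of 4.83. Such likeness is mostly that of the group difference, which all of these genes share.

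The values that bear on the samples as a whole were these. NFIC, the gene of the factor in the labels, read 8.22, 8.23 and 8.30 on the transfected arrays and 8.40, 8.49 and 8.52 on the wild type arrays on its brightest probe set. It was thus not higher on the arrays labelled transfected (log2 change -0.22, limma adjusted p over probe sets 0.082), and its other 3 probe sets, at -0.11, -0.51 and 0.22, did not pass. The sources used here do not say whether these probe sets can read the plasmid's message, so each direction rests on the labels. The mesenchymal marker VIM was bright in both groups, at 13.01 ± 0.05 in transfected cells and 13.54 ± 0.01 in wild type cells (SD, n = 3 each), and it fell by 0.53 on the log2 scale with groups apart (limma adjusted p over genes 0.000644). VIM thus moved in the direction of CAV1, CAV2 and CAVIN3, and whether these changes are linked was not tested. Among the other markers of the line, EPCAM and ERBB2 also read lower, by -0.75 and -0.22, with groups apart. Neither passed (limma adjusted p over genes 0.0602 and 0.0725). CDH1, PGR and ESR1 read 0.02, 0.11 and -0.03, with groups that overlapped, and did not pass. CDH1 and PGR were below the median level. ERBB2, ESR1 and EPCAM lay above it, at 7.25, 5.85 and 4.96 in transfected cells and 7.47, 5.88 and 5.71 in wild type cells. Of 13 markers of other caveola-rich cells (endothelium, fat, muscle) and of leukocytes, 9 were below the median level and PECAM1, PLIN1, MYH11 and DES just above it. Their mean per array ranged from 4.19 to 4.25 in transfected cells and from 4.10 to 4.27 in wild type cells, and none of them passed.

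A further feature of the deposited table touches 5 of the 17 probe sets. In wild type replicate 3, 6354 of the values carry more than 2 decimals, unlike those of the other arrays, and they include 1 value each of CAV1, EHD2 and PACSIN2 and 2 of CAV2. Without that array the same 5 probe sets fell, with log2 changes of -1.79 and -1.70 for CAV1, -2.15 and -1.76 for CAV2 and -0.80 for CAVIN3.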

How the data were processed

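Total RNA from 6 samples of MDA-MB-436 was hybridized to Affymetrix arrays. The authors deposited 1 table of log2 values made with RMA, per the submitters' processing notes. The RMA version is not stated in the sources used here. Values ranged from 2.35 to 14.62. Arrays have no read depth, and precision is limited by their number. SDs over probe sets had a median of 0.119 in transfected and 0.110 in wild type arrays.

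After 62 control probe sets were left out, the deposited log2 values were fitted with limma 3.58.1 (R 4.3.3, two-sided, empirical Bayes) without further normalization, and p-values were adjusted by Benjamini-Hochberg over 54613 probe sets, or over 19775 genes each read by the brightest probe set naming only it. The threshold was an adjusted p under 0.05. The fit was tested on simulated data. Genes were named through the platform annotation and RefSeq identifiers. The members, lists and named genes (every member and chromosome neighbour, up to 3 called genes with the largest change in each other list, and the 3 nearest patterns of CAV1 and of CAV2) were chosen with earlier results of these data known.

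Arrays of the same replicate number deviated together from their group means (correlations 0.398, 0.238 and 0.140 over probe sets). Arrays of different numbers gave -0.277 to 0.142, the highest for transfected replicate 3 with wild type replicate 2. Each same-numbered pair was over 0.1, the limit set for a pairing, but the basis for pair 3 is thus weak. The alternatives were other normalizations, weights, priors, filters, probe set choices, the replicate block and leaving out each array.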

Additional observations from a re-analysis of the deposited data

How the results depend on the processing

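With the replicate number as a block, 5 of the 17 caveolar probe sets and 3 of the 7 genes passed, as without it. With it, 12 genes of the related lists and 13470 of all probe sets passed, against 13 and 12142 without it. Among the members and the list genes named by the rules above, the block changed no call. Genes named after their values were seen, the markers and NFIC are not covered by that statement. When any 1 array was left out, 5 caveolar probe sets, 3 caveolar genes, 9 to 13 list genes and 9732 to 12358 of all probe sets passed. Under quantile normalization, median centring, cyclic loess, array weights, another variance prior and the filter on dim probe sets, 5 caveolar probe sets also passed. At an adjusted p under 0.01, 7948 of all probe sets passed, and still 5 caveolar ones. With _x_at and _s_at probe sets left out, fewer were tested, and 3 of 10 caveolar probe sets and 8 of 30 list genes passed. The direction of values near 0 was not stable, and none of them passed. EHD2 205341_at read 0.0125 after quantile normalization, 0.0019 after median centring and 0.0079 with array weights, and -0.0572 to 0.0828 with arrays left out. The mean of the EHD2 probe sets read 0.0217. EHD2 45297_at read -0.0433 to 0.1433 and CAVIN1 208790_s_at -0.2017 to 0.0433 with arrays left out. PACSIN2 read -0.03 on 1554691_a_at, the brightest of its probe sets once those were left out. With arrays left out, TFEC read -0.0366 to 0.0234 and WNT2 -0.0521 to 0.0400. The cause was not tested. Few arrays and compression at dim levels, as for CAVIN2, limit what small changes can show.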
